A study of Mus musculus with 27 samples.

Results

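Gene expression in the whole fetal brain of Cav1-null mice was compared with that of C57BL/6J mice on gestational day 15 (d15). The comparison took 6 of the 27 libraries of the series, 3 of each strain, chosen by their strain and day labels, and covered the 55416 genes of the read-count table. C57BL/6J is a common inbred laboratory strain. Cav1-null mice (B6.Cg-Cav1tm1Mls/J) carry a germline targeted allele of Cav1, present in all cell types, and were made congenic to C57BL/6J by backcrossing. All 6 fetuses were labelled female, and days were counted from the vaginal plug. The labels do not say whether the 3 fetuses of a strain came from separate litters, so p-values measure only the spread between these libraries.

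Cav1 encodes caveolin-1, which oligomerises in the inner leaflet of the cell membrane and thereby forms caveolae, invaginations that buffer membrane tension and take part in uptake and signaling. Caveolins bind cholesterol and work with the cavin coat proteins, and caveolin-2 needs caveolin-1 to reach the cell surface. In the fetal brain of this age, radial glia divide along the ventricles and give rise to intermediate progenitors and neurons while blood vessels grow into the tissue.

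Cav1 lies on the plus strand of chromosome 6 from 17306140 to 17341451 (GRCm39). The exon junctions of its mRNA are shown because the reads that cross them check the strain label. Each line holds 30 bases before and 30 bases after a junction, 5′ to 3′ from the GENCODE transcript, and the capitals mark the downstream exon.
Cav1 exon 1 to exon 2: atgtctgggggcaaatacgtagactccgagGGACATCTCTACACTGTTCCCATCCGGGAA
Cav1 exon 2 to exon 3: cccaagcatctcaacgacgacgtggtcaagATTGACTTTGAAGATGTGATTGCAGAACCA
Exon 1 ends at 17306478, exon 2 runs from 17307880 to 17308044, and exon 3 starts at 17339112.

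The first junction was crossed by 27, 18 and 31 reads in the C57BL/6J d15 libraries and by 0 reads in each Cav1-null d15 library. The second was crossed by 52, 32 and 56 reads in C57BL/6J and again by 0 in each Cav1-null library. A 0 in the junction table is not by itself a sign of absence, since 2 C57BL/6J libraries of d17 are listed at 0 for the second junction beside 110 reads in the other one. In the gene table, Cav1 was at 19.7, 12.6 and 19 CPM (counts per 1000000 reads, TMM-scaled) in C57BL/6J and at 0, 0.193 and 0.0668 CPM in Cav1-null. The groups did not overlap, and the log2 fold change of Cav1-null over C57BL/6J was -7.49 ± 0.44 (SE) with an adjusted p of 2.61e-07 in edgeR's quasi-likelihood test. Xist, the RNA that coats the inactive X chromosome, was high in all 6 libraries, from 3025 to 3162 CPM in C57BL/6J and from 4349 to 5852 CPM in Cav1-null. The summed level of the Y-linked genes Ddx3y, Eif2s3y, Kdm5d and Uty was at most 0.161 CPM in the 6 libraries before TMM scaling.

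The C57BL/6J d15 libraries stood apart in composition from the Cav1-null and AKR/J libraries before any gene was tested, while 1 C57BL/6J library of d12 and 1 of d17 lay close to them. They held 37191332 to 39759702 reads on genes, against 26846313 to 29090743 in Cav1-null d15. When each library's deviation from the median library was fitted on GC content and transcript length over 11880 protein-coding genes, the slope on GC was 0.53 to 0.57 log2 units per 10 percentage points in C57BL/6J d15 and -0.28 to -0.09 in Cav1-null d15. The slope on length was 0.31 to 0.33 log2 units per doubling in C57BL/6J d15 and -0.08 in each Cav1-null d15 library. The d15 libraries of AKR/J, another inbred strain that expresses Cav1, had slopes on GC of -0.06 to 0.04. Mitochondrially encoded genes took 1.21% to 1.31% of the reads in C57BL/6J d15, 3.18% to 3.71% in Cav1-null d15 and 2.26% to 2.69% in AKR/J d15. Because all 3 C57BL/6J d15 libraries share this composition, it cannot be told apart from the strain in the 6 libraries. One AKR/J d15 library had Xist at 3.38 CPM and the Y-linked genes at 0 CPM, so that neither marker of sex was present.

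The C57BL/6J libraries also differed among themselves in genes that separate the other strains. Beside Cav1, 41 genes, most of them processed pseudogenes, were at 5 CPM or more in all 9 AKR/J libraries and below 1 CPM in all 9 Cav1-null libraries, a rule that uses no C57BL/6J value. The mirrored rule, on in Cav1-null and off in AKR/J, gave 1 gene, AA388235, which was at 1 CPM or more in 8 of the 9 C57BL/6J libraries. Of the 41 genes, 40 were at 1 CPM or more in some C57BL/6J libraries and below it in others, 1 was below 1 CPM in each of the 9 and 0 reached it in all 9. The C57BL/6J d15 libraries had 25, 22 and 15 of the 41 genes at 1 CPM or more, and those of d12 and d17 had 12 to 25. Rps2-ps10 was at 39.9, 36.3 and 0.322 CPM in C57BL/6J d15, at 114 to 128 CPM in AKR/J d15 and at 0.290 to 0.454 CPM in Cav1-null d15. On d15, 13 genes were at 1 CPM or more in all 3 C57BL/6J libraries, with a mean level that was 48.1% (median, range 2.11% to 76.0%) of that in AKR/J. A further 13 were so in 1 or 2 of the 3 libraries. Libraries labelled as 1 inbred strain therefore did not express the same set of these genes. That no library of the Cav1-null line, which is congenic to C57BL/6J, reached 1 CPM was fixed by the rule and is not a result. The rule also selects for high levels in AKR/J. The genotype of the fetuses was not tested. No C57BL/6J library lacked all 41 genes, so no comparison without such libraries could be made, and a difference between the d15 groups that goes with these genes cannot be told apart from one that goes with Cav1.

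**Figure D1:**
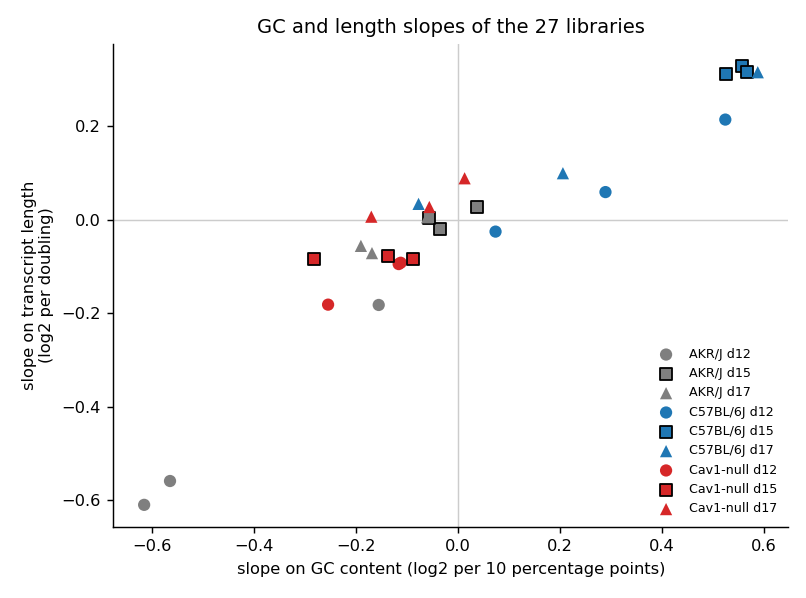
Slope of each library on GC content (x axis, log2 per 10 percentage points) and on transcript length (y axis, log2 per doubling), with 1 point per library, colour for strain and shape for day. The 3 outlined blue squares of C57BL/6J d15 sit between 0.53 and 0.57 on the x axis, while the 3 outlined red squares of Cav1-null d15 sit between -0.28 and -0.09.

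Of 19827 genes tested, 11621 (58.6%) were DE, with 5310 (26.8%) higher and 6311 (31.8%) lower in Cav1-null. Among the calls, 45.7% were higher, but 59.2% were with library sizes alone and 61.5% with upper quartile scaling, which moved the median of all genes from 0.03 to 0.21 and 0.25. Of the DE genes, 7730 had an absolute log2 fold change under 1. The direction followed sequence composition. When genes were split into 5 equal groups by GC content, 57.4% were higher and 5.63% lower in the group with the lowest GC content, whereas 8.7% were higher and 53.8% lower in the group with the highest. The median log2 fold change went from 0.59 to -0.46 from the group of lowest to that of highest GC content, and from 0.50 to -0.38 from the shortest to the longest of 5 groups by length. GC content and length together accounted for 42.6% of the variance of the log2 fold change over 12797 genes with an average log2 CPM above 2.

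**Figure D2:**
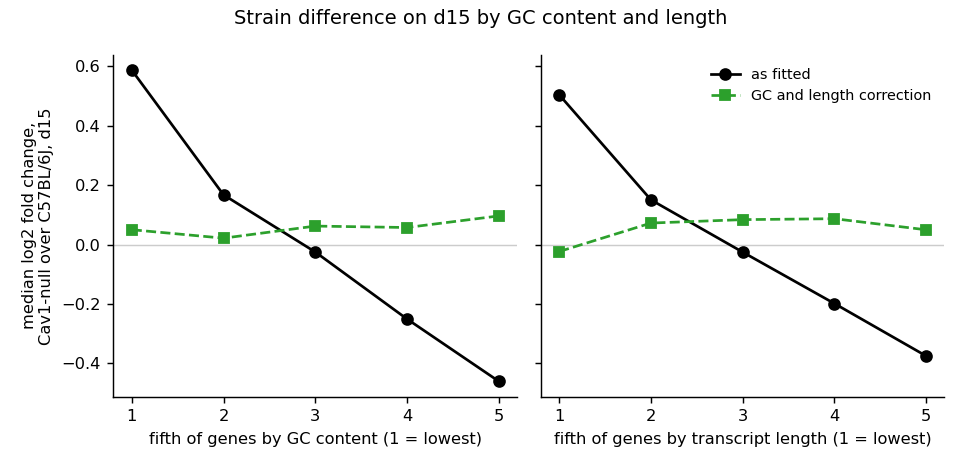
Median log2 fold change of Cav1-null over C57BL/6J on d15 (y axis) in 5 equal groups of the tested genes ordered by GC content (left) and by transcript length (right), as fitted (black circles) and with the GC and length correction (green squares). The black line falls from 0.59 to -0.46 with GC content, and the green line stays between 0.02 and 0.10 in the GC panel and between -0.02 and 0.09 in the length panel.

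A second fit was therefore made in which the trend of every library with GC content and length was removed, and its values are given beside some of the results. A value printed without a second one comes from the fit without the correction. This correction also takes away any strain difference that itself follows GC content or length. It left 9352 of 19707 genes DE (47.5%), with 5121 higher and 4231 lower. In both fits, 6201 genes were DE in the same direction, which is 53.4% of the calls without the correction and 66.3% of those with it, and 982 genes were DE in opposite directions. Called shares of gene lists are read against 26.8% higher and 31.8% lower over all genes, and with the correction against 26% higher and 21.5% lower.

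Rpl39, a small protein of the large ribosomal subunit and one of the largest rises, is shown as an example of a gene with a short coding sequence, which is 153 bases long with 45.1% GC. The trends and the correction used transcript values instead, for Rpl39 a median of 1768 bases and 46.2% GC. The first 150 coding bases are printed 5′ to 3′ from the GENCODE transcript on GRCm39, with the start codon in capitals.
Rpl39: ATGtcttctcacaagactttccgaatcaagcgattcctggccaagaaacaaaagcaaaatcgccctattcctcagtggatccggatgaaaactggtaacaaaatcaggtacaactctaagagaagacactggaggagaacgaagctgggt
Rpl39 lies on the minus strand of chromosome X from 36345092 to 36349130.

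Among the other genes of caveolae, 6 of the 9 tested, Cav1 included, were lower and 1 was higher in Cav1-null. Cavin1, the main coat protein of caveolae, was at 62.7, 27.2 and 34.5 CPM in C57BL/6J and at 7.36, 9.95 and 6.58 CPM in Cav1-null, a log2 fold change of -2.34 ± 0.29 (-1.58 with the correction). Ehd2, an ATPase at the neck of caveolae, fell by 1.92 on the log2 scale (1.07 with the correction). Cavin2, Pacsin2 and Pacsin3, which bind or bend the membrane at caveolae, had log2 fold changes of -0.66, -0.97 and -0.94, and Pacsin2 and Pacsin3 had -0.59 and -0.45 with the correction. The calls of all 5 held with the correction. Cavin3 and Cavin4 did not pass the test, with log2 fold changes of 0.01 ± 0.22 and 0.25 ± 0.19. AKR/J d15 libraries had Cavin1 at 10.4, 41 and 11.6 CPM and Cav1 at 24, 33.7 and 15.6 CPM. In 2 of these 3 libraries Cavin1 lay near the Cav1-null level, and the cause was not tested. The C57BL/6J library with Cavin1 at 62.7 CPM, which also had the most Ehd2 (21.9 CPM), held Col1a1, a connective tissue gene, at 2700 CPM against 82.1 and 153 CPM in the others, and the AKR/J library with Cavin1 at 41 CPM held Col1a1 at 241 CPM against 7.67 and 11.7 CPM. Without that C57BL/6J library the log2 fold changes of Cavin1 and Ehd2 were -1.91 and -1.63, both called, and the part of connective tissue in them was not tested further.

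Cav2, the neighbouring gene and partner of caveolin-1, was the one caveolae gene that rose. It was at 8.39, 5.46 and 7.52 CPM in C57BL/6J and at 14.7, 18.6 and 23.6 CPM in Cav1-null, with no overlap. Its log2 fold change was 1.45 ± 0.20 with an edgeR adjusted p of 0.000135, and it was 0.78 with the correction. The lncRNA Gm15581, annotated on the minus strand from 17206822 to 17385603 across both Cav2 and Cav1, was at 0.0542, 0 and 0 CPM in C57BL/6J and at 2.62, 3.12 and 5.34 CPM in Cav1-null. The 3 C57BL/6J libraries together held 2 reads of Gm15581 and the 3 Cav1-null libraries 332, a ratio of 227 for equal totals (62.4 to 1885, exact 95% interval, counting error only). Strand handling of the counts is not given in the sources used here, so reads of overlapping genes on opposite strands cannot be assigned with certainty.

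Within 10 Mb of Cav1, 59 other genes were tested. Of these, 28 were higher and 9 lower, so that 62.7% were DE, against 58.6% of all other genes. With the correction, 16 were higher and 11 lower (45.8%, against 47.2%). Those with the largest changes beside Cav1, Cav2 and Gm15581 were 5330437M03Rik, Gm42583, Ndufa4, Ndufa5, Thsd7a, 2610001J05Rik and Kcnd2, with absolute log2 fold changes from 1.04 for Kcnd2 to 1.91 for 5330437M03Rik, and 5330437M03Rik, at 1.42 to 2.94 over the 6 fits without 1 library and called in 5 of them, was not called with the correction, while Ndufa4 went from 1.49 to 0.37. Thsd7a, 4.56 Mb before Cav1, fell from 118, 132 and 124 CPM to 50, 49.3 and 52.4 CPM, and Kcnd2, a potassium channel gene, was the other of them that fell.

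**Figure D3:**
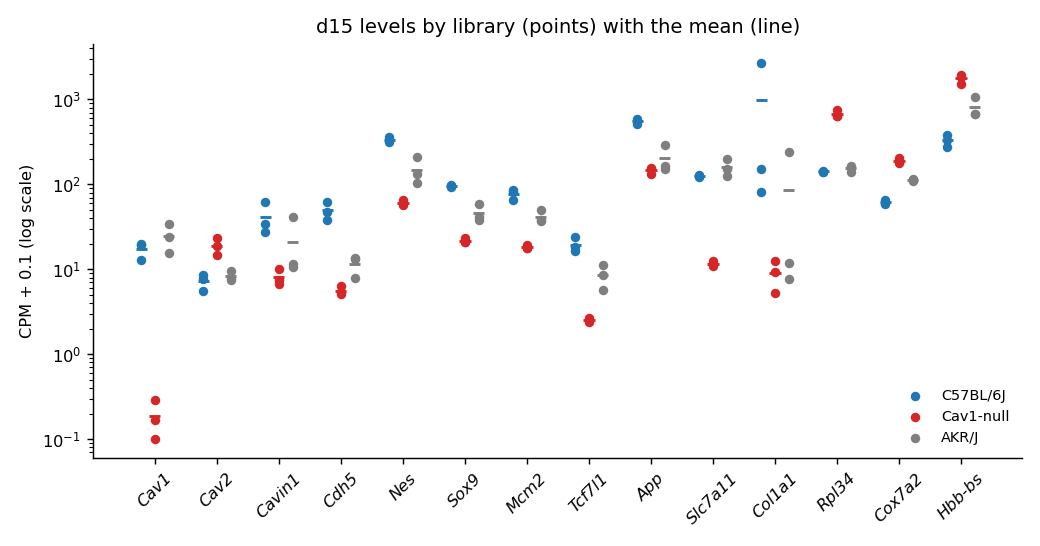
Level of 14 genes on d15 (y axis, CPM + 0.1 on a log scale) in the 3 libraries of C57BL/6J (blue), Cav1-null (red) and AKR/J (grey), with the mean as a line. Cav1-null and C57BL/6J do not overlap for any gene shown, and in Col1a1 1 C57BL/6J library lies at 2700 CPM, far above the other two.

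Genes of blood vessels were lower in Cav1-null. Of 18 endothelial genes, 14 were lower and 2 higher, with a median log2 fold change of -1.36 (-1.03 with the correction, under which 13 were lower and 1 higher), beside 0.03 over all genes. Cdh5, the cadherin of endothelial junctions, was at 62.5, 37.8 and 47.8 CPM in C57BL/6J and at 6.25, 4.99 and 5.28 CPM in Cav1-null. All Cav1-null libraries lay far below all C57BL/6J libraries, a log2 fold change of -3.13 ± 0.19 (edgeR adjusted p = 2.68e-07; -2.56 with the correction). Kdr, a receptor of vascular endothelial growth factor, fell by 2.18, and Slc2a1, the glucose transporter of the blood-brain barrier, by 2.02 (1.34 with the correction). Plvap, a protein of endothelial diaphragms, fell from 9.32, 3.25 and 5.79 CPM to 1.88, 1.64 and 0.935 CPM. The highest level of Cdh5, Plvap and Pdgfrb was in C57BL/6J replicate 1, the library with Col1a1 at 2700 CPM. Without it their log2 fold changes were -2.92, -1.57 and -2.03, each still called. Of 11 genes of pericytes and mural cells, 7 were lower and 2 higher, and the growth factor receptor gene Pdgfrb fell from 57.1, 37.1 and 50 CPM to 10.7, 10.3 and 10.3 CPM (-2.17, and -1.27 with the correction). In AKR/J d15, Cdh5 was at 7.71, 13.2 and 13.7 CPM, between the other strains. In whole tissue, fewer cells of a type and less RNA per cell cannot be told apart.

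Progenitor genes were lower as well. Of 18 genes of radial glia, 16 were lower and 2 higher, with a median of -0.86 (-0.84 with the correction). Their summed level ranged from 3184 to 3352 CPM in C57BL/6J, 2178 to 2299 CPM in Cav1-null and 2051 to 2886 CPM in AKR/J d15. Nes, the intermediate filament of neural progenitors, was at 330, 365 and 313 CPM in C57BL/6J and at 65.2, 60.1 and 56.6 CPM in Cav1-null, a log2 fold change of -2.43 ± 0.08 (-1.46 with the correction). Sox9, a transcription factor of radial glia, fell from 96.4, 98.5 and 93.3 CPM to 20.8, 21 and 23.1 CPM, a log2 fold change of -2.11 that was -1.72 with the correction. Notch1 and Notch2, receptors that keep progenitors dividing, fell by 2.26 and 1.81 (1.09 and 0.81 with the correction). Of 14 genes of intermediate progenitors, 12 were lower and 1 higher, with Neurog1, Insm1, Dll3 and Eomes falling by 2.46, 2.09, 1.71 and 1.36. With the correction, Insm1, Dll3 and Eomes fell by 1.17, 0.91 and 0.78. In AKR/J d15, the intermediate progenitor list summed to 671 to 988 CPM, against 1072 to 1170 in C57BL/6J and 759 to 775 in Cav1-null.

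Of 38 genes of DNA replication, 20 were lower and 8 higher, with a median of -0.44. Mcm2 and Mcm3, subunits of the replicative helicase, fell from 85.4, 81.9 and 65.5 CPM to 17.5, 17.8 and 19.3 CPM and from 65.4, 59.9 and 52.6 CPM to 16.5, 14.7 and 13.5 CPM. Uhrf1 and Cdt1, which maintain DNA methylation and license origins, fell by 1.86 and 1.77. Of 30 genes of mitosis, 16 were lower and 4 higher, and Plk1, Cdc20, Tpx2 and Aurkb fell by 1.39, 1.39, 1.13 and 1.12. With the correction, 19 replication genes were lower and 7 higher, and 19 mitosis genes were lower and 2 higher. Leaving out 1 library gave 19 to 20 lower and 5 to 8 higher for replication, and 14 to 19 lower and 2 to 4 higher for mitosis.

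Wnt signaling, which patterns the neural tube and sustains progenitors, was the list with the largest share of lower genes among those with over 20 members. Of 36 genes, 31 were lower and 0 higher, with a median of -1.52, and with the correction 27 were lower and 3 higher with a median of -0.95. Their summed level was 2468 to 2763 CPM in C57BL/6J, 1247 to 1289 in Cav1-null and 1674 to 2073 in AKR/J d15. Tcf7l1, a transcription factor of the pathway, was at 23.7, 16.3 and 18.4 CPM in C57BL/6J and at 2.3, 2.38 and 2.54 CPM in Cav1-null, a log2 fold change of -2.97 ± 0.17. The ligand gene Wnt3a was low in both strains, at 1.25 to 1.74 CPM against 0.193 to 0.244 CPM, and fell by 2.83. Sfrp2, a secreted antagonist, and Fzd10, a receptor, fell by 2.23 and 2.17.

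Of 41 genes of synaptic signaling, 24 were lower and 10 higher with a median of -0.55. With the correction, 11 were lower and 12 higher with a median of -0.0013. Syn1, a synaptic vesicle protein, fell from 148, 140 and 165 CPM to 32.4, 29.8 and 30.6 CPM and was lower in both fits (-2.25 and -1.45), as was the vesicle protein Sv2a (-1.48 and -0.76). In AKR/J d15, Syn1 was at 30, 24.8 and 49.4 CPM. The synaptic list summed to 5837 to 6602 CPM in C57BL/6J, 5230 to 5318 in Cav1-null and 3390 to 4412 in AKR/J d15. Slc17a7, the vesicular glutamate transporter, had -1.01 without and -0.22 with the correction, the latter not called. Of 20 genes of cortical projection neurons, 13 were lower and 3 higher, and 8 and 5 with the correction, which took the median from -0.43 to -0.07. Bcl11b and Tbr1, transcription factors of deep-layer neurons, fell by 1.88 and 1.83 (1.11 and 1.39 with the correction, both called). Of 20 GABAergic genes, 12 were lower and 0 higher, and 12 and 3 with the correction, with Dlx2 falling by 1.76 (1.14 with the correction). The cortical projection list summed to 3462 to 3822 CPM in C57BL/6J, 2381 to 2484 in Cav1-null and 1558 to 2347 in AKR/J d15. For the GABAergic list these were 1324 to 1422, 957 to 984 and 829 to 1007 CPM.

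Astrocyte and oligodendrocyte lineage genes had 11 of 16 and 11 of 14 members lower, with Aldh1l1, Gja1, Cspg4 and Olig2 falling by 1.62, 1.45, 2.02 and 1.21. With the correction, 11 and 7 were lower, and Aldh1l1, Cspg4 and Olig2 fell by 0.89, 0.77 and 0.54. The astrocyte list summed to 1075 to 1283 CPM in C57BL/6J, 518.7 to 587 in Cav1-null and 625.7 to 804.8 in AKR/J d15. For the oligodendrocyte list these were 382.9 to 452.2, 220.9 to 265.8 and 204.5 to 253.6 CPM. The microglial list had no common direction, with 6 of 16 genes higher and 6 lower. Csf1r, the receptor on which microglia depend, fell from 28.4, 18.6 and 23.4 CPM to 5.03, 7.54 and 6.01 CPM (-1.88, and -1.01 with the correction), while Tyrobp, a short signaling adaptor of the same cells, rose from 2.22, 2.38 and 1.99 CPM to 5.34, 6.7 and 6.41 CPM. Of 27 genes of the amyloid and tau pathway, 18 were lower and 4 higher. Their summed level was 5546 to 5982 CPM in C57BL/6J, 2688 to 2963 in Cav1-null and 2575 to 3648 in AKR/J d15. App, the amyloid precursor protein, was at 557, 520 and 589 CPM in C57BL/6J and at 156, 150 and 131 CPM in Cav1-null, a log2 fold change of -1.89 ± 0.08 (-1.42 with the correction).

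Slc7a11, the cystine and glutamate exchanger, had the smallest p of all named genes. It was at 128, 122 and 125 CPM in C57BL/6J and at 10.8, 11.1 and 12.4 CPM in Cav1-null, a log2 fold change of -3.41 ± 0.07 (edgeR adjusted p = 7.75e-09) that was -3.31 with the correction. The AKR/J libraries of d15 had 150, 125 and 201 CPM. On the other days, C57BL/6J had 8.86 to 17.3 CPM on d12 and 21.6, 19.4 and 107 CPM on d17, Cav1-null had 10.4 to 13.2 and 16.7 to 25.7 CPM, and AKR/J had 69.3 to 117 and 140 to 176 CPM. The C57BL/6J level of Slc7a11 was thus near that of AKR/J in all libraries of d15 and in 1 of d17, and near that of Cav1-null in the other 5. Of 26 genes of the amino acid stress response, 14 were lower and 3 higher, and with the correction 9 were lower and 3 higher. Slc7a5, a transporter of large neutral amino acids, fell by 2.58 and Phgdh, the first enzyme of serine synthesis, by 1.26. The chaperone genes Hspa1a, Bag3 and Hspa1b fell by 2.87, 2.58 and 2.31, while Hspe1, the mitochondrial co-chaperonin, rose by 1.21 (0.75 with the correction).

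Ribosomal protein genes were higher. Of 42 genes of cytosolic ribosomal proteins, 41 were higher and 0 lower in both fits, with a median of 1.24 (0.93 with the correction). The correction used median lengths of annotated transcripts, 1970 bases for Rpl34 and 1768 for Rpl39 but 523 for Rps27 and 453 for Rps21. Their coding lengths are 351, 153, 252 and 249 bases. Whether the lengths used suit the mRNAs of this list was not tested, so its corrected values are uncertain. Rpl34 was at 145, 141 and 140 CPM in C57BL/6J and at 643, 636 and 750 CPM in Cav1-null, a log2 fold change of 2.29 ± 0.08. Rpl38, Rps27 and Rps21 rose by 2.02, 1.94 and 1.85, Rpl39 from 60.3, 82.2 and 81.8 CPM to 294, 319 and 261 CPM, and Rpl29 by 2.57. These families have many processed copies in the genome, and how reads with several matches were counted is not given in the sources used here, so single values of ribosomal protein genes are uncertain. The list summed to 11633 to 11670 CPM in C57BL/6J, 25808 to 26770 in Cav1-null and, between them, 19054 to 21402 in AKR/J d15. Rps27 was likewise between the strains in AKR/J d15, at 334, 346 and 298 CPM, but Rpl34, at 158, 164 and 141 CPM, was within or near the C57BL/6J range.

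Of 47 nuclear genes of the respiratory chain, 31 were higher and 7 lower, with a median of 0.71 (0.37 with the correction). Cox7a2, a small subunit of cytochrome c oxidase, rose from 60.7, 59.1 and 65 CPM to 191, 176 and 206 CPM, by 1.67 without and 1.66 with the correction. Cox6c rose by 1.62 (0.89 with the correction), and Atp5k, a subunit of ATP synthase, by 1.86. All 8 mitochondrially encoded genes that were tested were higher, with a median of 1.09, but with the correction 6 were lower and 1 higher with a median of -0.33. mt-Nd1 went from 1.16 to -0.31 and mt-Nd2 from 1.10 to -0.41, called in opposite directions, whereas mt-Co1 stayed higher (1.44 and 0.40).

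Of 12 erythroid genes, 6 were higher and 2 lower in both fits. Hbb-bs, an adult beta-globin gene, was at 381, 279 and 330 CPM in C57BL/6J and at 1532, 1925 and 1844 CPM in Cav1-null, a log2 fold change of 2.46 ± 0.12 (1.90 with the correction). Hbb-bt, the second of these genes, rose by 2.33. The summed level of the erythroid list ranged from 812 to 1070 CPM in C57BL/6J, from 2912 to 3610 CPM in Cav1-null and from 2040 to 3148 CPM in AKR/J, and the part of blood left in the tissue in other results was not tested.

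Genes of connective tissue and cartilage had 12 of 16 members lower and 0 higher, and 7 lower with the correction. Leaving out 1 library gave 6 to 13 lower and 0 to 2 higher, and without C57BL/6J replicate 1 the median went from -1.92 to -0.56. Their summed level ranged from 636 to 6188 CPM in C57BL/6J and from 235 to 343 CPM in Cav1-null, and the highest value belonged to a single C57BL/6J library. Col1a1, a chain of type I collagen, was at 2700, 82.1 and 153 CPM in C57BL/6J and at 5.2, 12.5 and 9.22 CPM in Cav1-null, with a log2 fold change of -6.73 ± 1.30. Without C57BL/6J replicate 1 it was -3.66, still called. Col1a2, Col3a1 and the growth factor gene Igf2 had -5.06, -3.90 and -3.12, and -2.78, -2.87 and -2.18 without that library. Ibsp, a protein of bone matrix, was at 102 CPM in that library and below 1 CPM in the other 5, and its log2 fold change of -6.20 became 0.04 without it. Acan, the core proteoglycan of cartilage, went from -5.07 to -1.29, no longer called (edgeR adjusted p = 0.078). Myh8, a fetal muscle myosin, was the only called one of 12 muscle genes with all libraries, whereas leaving out 1 library gave 1 to 4 lower and, without C57BL/6J replicate 1, 4 higher.

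The other large falls were processed copies of other genes, and they belong to the genes on which the C57BL/6J libraries differed. Tdg-ps2 was at 17.4, 16.5 and 14 CPM in C57BL/6J and at 0.0349, 0 and 0.0334 CPM in Cav1-null. The Cav1-null libraries held 2 reads of Tdg-ps2 and the C57BL/6J libraries 1687, a ratio of 616 for equal totals (170.3 to 5090, exact 95% interval, counting error only). Gm6166, Gm3375 and Rps3a2 fell by 7.05, 6.58 and 5.47, with all C57BL/6J libraries between 15.2 and 18.9 CPM and all Cav1-null libraries below 0.5 CPM. In AKR/J d15, all 4 were at 21.9 CPM or more, and the 9 C57BL/6J libraries ranged from 0 to 22.02 CPM for Tdg-ps2 and from 0.308 to 18.9 CPM for Rps3a2. Rpsa-ps10 rested on 1 library, with 0.135, 0.174 and 111 CPM in C57BL/6J, and turned to 1.73 without C57BL/6J replicate 3. Rps2-ps10, at 0.322 CPM in 1 C57BL/6J library, had a log2 fold change of -6.11 with groups that overlap. The Ensembl gene ENSMUSG00000095041, which carries no symbol, was among the 10 largest rises at 1.94.

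Among the remaining lists, described by the same counts, genes of hypoxia and glycolysis (17 of 25 lower, 5 higher), immediate early genes (13 of 18 lower, 1 higher), imprinted genes (17 of 31 lower, 9 higher), the spliceosome (18 of 37 lower, 10 higher) and cholesterol synthesis (12 of 23 lower, 6 higher) had more lower than higher members, although the spliceosome median of -0.14 turned positive with library sizes alone and upper quartile scaling. With the correction, 7 immediate early genes were lower and 2 higher, and 9 genes of cholesterol synthesis were lower and 8 higher, with a median of 0.031. Ribosome biogenesis had 19 of 44 lower and 14 higher, with a median of -0.05 that turned with the same scalings. Jun, an immediate early transcription factor, fell from 66.4, 71.3 and 73.2 CPM to 18.2, 18.5 and 18.1 CPM. Prpf8, a core spliceosome protein, fell by 1.95 (1.17 with the correction) and Snrpe, a small one, rose by 1.41 (0.25 with the correction). Idi1, an enzyme of isoprenoid synthesis, rose by 0.97 without and fell by 0.41 with the correction. Of 20 hindbrain and cerebellum genes, 7 were lower and 0 higher, with Pax5 and En1 falling by 1.97 and 1.63 (1.21 and 1.02 with the correction). Without C57BL/6J replicate 3, 6 were lower and 8 higher, and the median went from -1.41 to 0.031. Choroid plexus genes had 6 of 12 lower and 1 higher, with Clic6 falling from 30.6, 22.3 and 27.9 CPM to 3.8, 5.28 and 4.61 CPM. Heat shock chaperones had 8 of 15 lower and 3 higher, antigen presentation 4 of 15 and 2, known laboratory strain variant genes 4 of 14 and 3, pituitary genes 2 of 4 and 0, and lens and pigment cell genes 1 of 5 and 0. Antigen presentation had 2 to 3 lower with 1 library left out, and 2 lower and 1 higher with the correction. Epidermal genes had 3 of 9 higher and 0 lower (1 to 6 higher with 1 library left out), and those of placenta and yolk sac 1 of 5 and 0 (0 to 2 higher with 1 library left out).

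**Figure D4:**
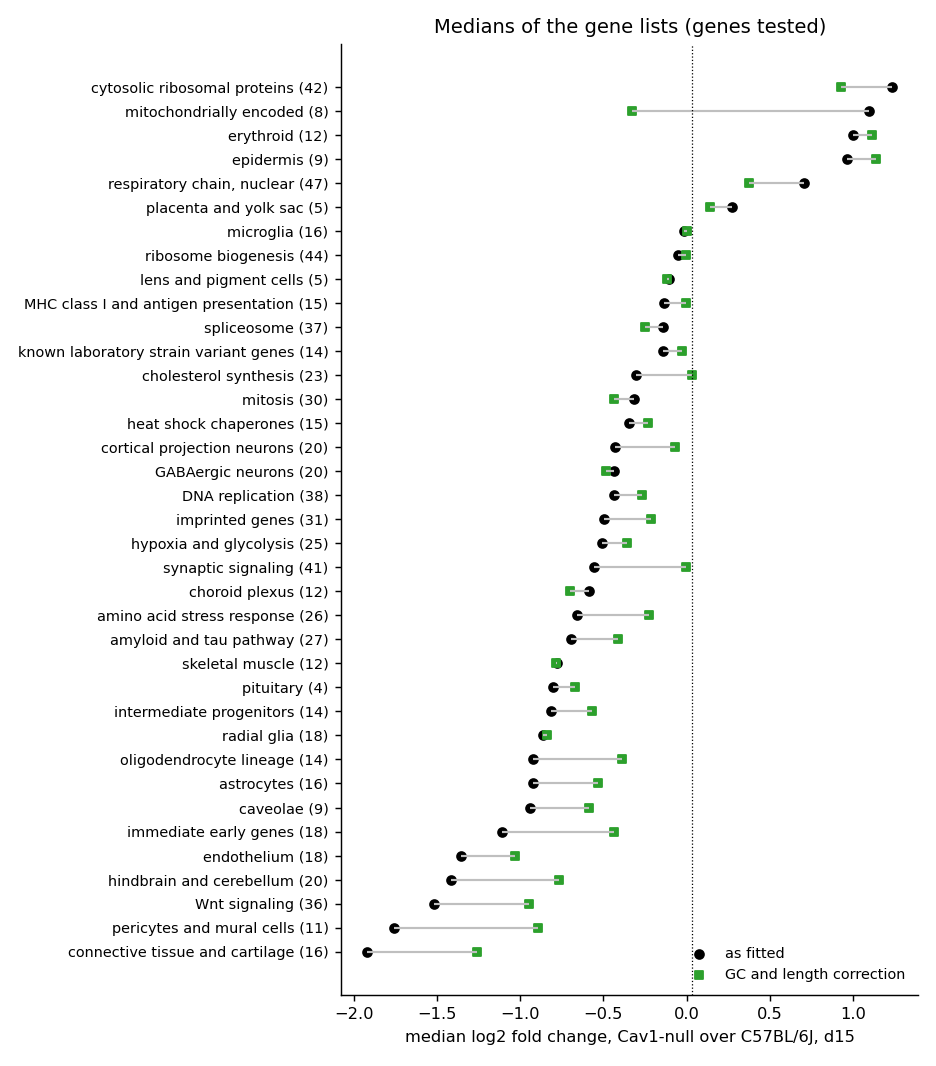
Median log2 fold change on d15 of each gene list (x axis), as fitted (black circles) and with the GC and length correction (green squares), with the number of genes tested in brackets and the median of all genes as a dotted line. Ribosomal proteins lie highest as fitted, at 1.24, with erythroid and epidermal genes above them with the correction (1.12 and 1.14 against 0.93), and mitochondrially encoded genes cross from 1.09 to -0.33.

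The same strain difference was fitted on the other days, in libraries that the d15 comparison did not use. On d12, 0 of 19475 genes were DE by edgeR, with 4309 at an unadjusted p under 0.05 and 2027 DE by DESeq2. On d17, 10 of 20358 genes (0.0491%) were DE by edgeR, 1 higher (0.00491%) and 9 lower (0.0442%), Cav1 among them. Cav1 on d12 had a log2 fold change of -7.12 with an edgeR adjusted p of 0.0789, at 10.5 to 18.6 CPM in C57BL/6J and 0 to 0.208 CPM in Cav1-null. One of the d12 Cav1-null libraries had Xist at 3.67 CPM and the Y-linked genes at 425 CPM (both before TMM scaling), against its label, and without it 0 genes were DE as well. Of the genes DE on d15, 91.9% of the 11266 tested on d12 and 89.3% of the 11487 tested on d17 had the same sign of log2 fold change there. Trends with GC content and length ran in the same direction on these days and accounted for 44.1% and 30.9% of the variance. The signs compared were those without the correction on d12 and d17, so shared signs cannot be told apart from shared trends. The share over all genes tested was not computed. The strain difference itself differed between d15 and d12 for 1 of 21191 genes (0.00472%), Slc7a11, and between d15 and d17 for 54 of 21431 genes (0.252%), with 47 (0.219%) more positive and 7 (0.0327%) more negative on d15, but leaving out 1 library gave 1 to 1618 and 0 to 5792 genes for these differences, and 0 to 1500 genes DE on d12 and 2 to 2865 on d17. Without C57BL/6J d17 replicate 1, 2050 of the 5792 were more positive and 3742 more negative.

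The 6 libraries were also placed on an axis from d12 (0) to d17 (1), set by 1690 genes that rose and 1018 that fell between these days in both strains. C57BL/6J d15 libraries lay at 0.405, 0.454 and 0.524 (mean 0.461 ± 0.060, SD, n = 3) and Cav1-null d15 libraries at 0.654, 0.640 and 0.646 (mean 0.647 ± 0.007, SD, n = 3). All 3 Cav1-null libraries of d15 lay later than all C57BL/6J libraries of d15, by 0.186 of the axis on average and 0.188 with the correction. On d12, C57BL/6J libraries lay at 0.003, 0.032 and -0.245 and Cav1-null libraries at 0.007, 0.029 and 0.173. On d17, they lay at 0.941, 1.01 and 0.962 in C57BL/6J and at 1.03, 1.04 and 1.02 in Cav1-null. A later position was thus not particular to d15, and the spread within C57BL/6J d12 was wider than the d15 difference. With genes taken from AKR/J alone, the order turned to -0.056, so the placement depends on the strain that sets the axis. AKR/J d15 libraries lay at 0.312 to 0.353. Of the 1634 rising genes that were tested, 560 were higher and 347 lower in Cav1-null on d15, and of 1002 falling genes 114 were higher and 537 lower. With the correction, these counts were 629 and 136, and 61 and 482.

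**Figure D5:**
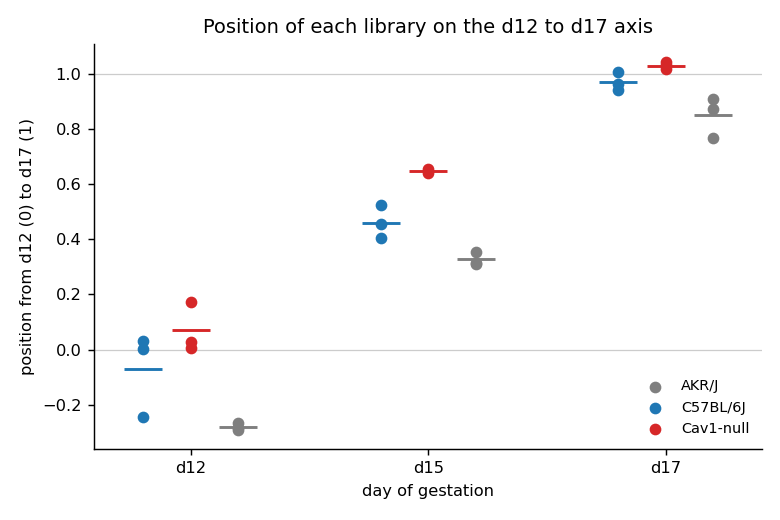
Position of each library between d12 (0) and d17 (1) by day (x axis) and strain (colour), with the mean of 3 libraries as a line. On d15 the Cav1-null libraries sit between 0.640 and 0.654 and the C57BL/6J libraries between 0.405 and 0.524.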

How the data were processed

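Poly(A)-selected RNA of 27 whole fetal brains was sequenced. Per the labels, the authors checked reads with FastQC, cut adaptors with cutadapt, trimmed with fastp and mapped to GRCm39 with STAR, and deposited whole read counts per Ensembl gene and per splice junction, without normalization. The counting tool, strand handling and versions are not given in the sources used here. Libraries held 26363697 to 39759702 reads on genes.

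Groups follow the strain and day labels. The 6 d15 libraries were fitted in R 4.3.3 with edgeR 4.0.16 (filterByExpr, TMM, quasi-likelihood test). Genes were DE where the p adjusted by Benjamini-Hochberg over all genes tested was under 0.05, and d12, d17 and the interactions of strain and day were fitted alike. SEs were derived from the log2 fold change and the F statistic. GC content and length are medians over each gene's GENCODE transcripts. The GC and length correction, chosen after seeing the data, enters spline trends (5 degrees of freedom each) as offsets. The scripts were tested on simulated counts, where planted changes were recovered but the share of false calls lay above the nominal threshold, so calls near the threshold are less certain than it states. Named genes were Cav1 and sex genes, the 10 largest rises and falls among DE genes (mean log2 CPM 3 or more), up to 4 called members with the largest change in each of 37 lists (all of caveolae), up to 10 called genes within 10 Mb of Cav1 and up to 5 of each interaction. The members and lists were chosen with earlier results of these data known. Alternatives were DESeq2 1.42.0, the likelihood ratio test, other scalings and filters, all 27 libraries in 1 model, a minimum fold change, a replicate block, thinning to the smallest library (added after seeing the data) and each library left out. The rule on genes at 5 CPM or more in AKR/J and below 1 CPM in Cav1-null was set after seeing the data. No duplicated library was found. Some items are not reported here.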

Additional observations from a re-analysis of the deposited data

Results flagged for a closer look

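The strain difference on d15 was tested against that on the other days. Against d12 it differed for 1 gene, Slc7a11, whose log2 fold change on d15 minus that on d12 was -3.31. Its C57BL/6J level was near that of AKR/J on d15 and near that of Cav1-null on d12. Against d17 it differed for 54 genes, 47 with a higher and 7 with a lower difference on d15. The 5 of these with the smallest p were Gm37899, Gm5415, 2900027M19Rik, Gm37333 and Gm47026, whose log2 fold changes on d15 exceeded those on d17 by 1.93, 2.41, 3.28, 3.12 and 3.74. Gm37333 was at 0.244, 0.232 and 0.381 CPM in C57BL/6J d15 and at 2.34, 1.71 and 2.07 CPM in Cav1-null d15. The count of 54 fell to 0 with the replicate block and to 0 without Cav1-null d15 replicate 1, Cav1-null d15 replicate 3 or Cav1-null d17 replicate 3, with 4366, 4166, 3613 and 4120 genes at an unadjusted p under 0.05. With the GC and length correction, 7 and 26 genes differed from d12 and d17. Without C57BL/6J d17 replicate 1, whose composition was close to that of C57BL/6J d15, 5792 genes differed from d17, and without C57BL/6J d12 replicate 2, 1618 differed from d12.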

How the results depend on the processing

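Of the alternatives for the d15 comparison, all gave a count within 1.5 times of 11621 except a minimum absolute log2 fold change of 1 (3891 genes), and leaving out each library gave 10418 to 10947. With all 27 libraries in 1 model the count was 8185, and 23 of 165 named genes kept their sign but were no longer called. In that model 15 of 37 list medians moved by more than the SD over the fits without 1 library. On the other days, where the C57BL/6J libraries differed from each other in composition (slopes on GC of 0.07 to 0.52 on d12 and -0.08 to 0.59 on d17), counts were not stable. DESeq2 called 2027 genes on d12 and 48 on d17, and 498 and 1436 for the differences of d15 from d12 and d17. With no filter on low counts, these were 750, 30, 46 and 1010. The GC and length correction gave 7 and 26 for the 2 differences. Leaving out 1 library gave 0 to 1500 genes on d12, 2 to 2865 on d17, 1 to 1618 for the difference from d12 and 0 to 5792 for that from d17, the highest without C57BL/6J d12 replicate 3, C57BL/6J d17 replicate 2, C57BL/6J d12 replicate 2 and C57BL/6J d17 replicate 1.

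Same-numbered d15 libraries did not deviate together, with correlations of -0.17, -0.27 and -0.20, so the numbers are not taken to pair the samples. With the replicate block, 10676 genes were DE on d15, 3 on d17 and 0 for the difference of d15 from d17, and the median of the skeletal muscle list turned to 0.044.

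The GC and length correction turned Idi1 (-0.41), mt-Nd1 (-0.31), mt-Nd2 (-0.41), mt-Nd3 (-0.43) and B2m (-0.41), and the medians of mitochondrially encoded genes (-0.33), cholesterol synthesis (0.031) and microglia (0.00084). Over the fits that left out 1 library, Ibsp ranged between -6.79 and 0.040 (-6.20 with all) and Rpsa-ps10 between -6.70 and 1.73 (-6.12 with all). The medians ranged between -0.020 and 0.024 for microglia (-0.013 with all), -1.48 and 0.86 for skeletal muscle (-0.78 with all, highest without C57BL/6J replicate 1), -1.64 and 0.031 for hindbrain and cerebellum (-1.41 with all, highest without C57BL/6J replicate 3) and -0.34 and 0.032 for antigen presentation (-0.14 with all). List medians near 0 turned with library sizes alone and with upper quartile scaling, namely microglia (0.17 and 0.20), lens and pigment cells (0.073 and 0.10), ribosome biogenesis (0.13 and 0.16), spliceosome (0.042 and 0.076), antigen presentation (0.044 and 0.082) and strain variant genes (0.043 and 0.074). With at least 10 reads in each library, microglia were at 0.26 and ribosome biogenesis at 0.020, and thinning put microglia at 0.094. The position between d12 and d17 turned to -0.056 with genes of AKR/J alone. The cause was not tested.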
